A study of Rattus norvegicus with 27 samples.

Results

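The Goto-Kakizaki rat, a strain with spontaneous diabetes that was selected from Wistar stock, was compared with Wistar control rats in 2 brain regions, the hippocampus and the prefrontal cortex, and the comparison described here is the difference between those 2 regional effects. For each probe of the array, the change from control to Goto-Kakizaki in the prefrontal cortex was subtracted from the change in the hippocampus. A positive difference therefore means that the Goto-Kakizaki effect was higher in the hippocampus, and a negative one that it was lower there. The members were all 12 arrays labelled as these groups, of 27 arrays in the series, with 3 arrays in each of the 4 groups. Each array held RNA pooled from 3 animals, and every group had 9 male rats of 10 weeks whose brains gave both regions. Average blood sugar was 13.9 mmol/l in the Goto-Kakizaki rats and 7.64 mmol/l in the controls. Strain and diabetes cannot be told apart in this design. The remaining arrays held the striatum of these rats and all 3 regions of Wistar rats made diabetic with 65 mg/kg of streptozotocin, and they served to estimate the spread and as values to set beside the results. The hippocampus and prefrontal cortex of a group came from the same brains, and because pools are the units, p-values measure the spread between pools.

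The hippocampus and the prefrontal cortex are connected parts of the forebrain that serve memory and the control of behaviour. Both are built mainly of glutamate neurons with GABA interneurons, astrocytes, oligodendrocytes and microglia, and the hippocampus lies beside the choroid plexus, the tissue that makes cerebrospinal fluid. Neurons and glia of both regions carry receptors for insulin and insulin-like growth factor, and diabetes is known to be accompanied by changes of synapses, glia and vessels in the brain. In bulk tissue, fewer cells of a type and less RNA per cell cannot be told apart.

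Each gene was read by 60-base probes, and the values below belong to those probes. The probes of 8 features on which the results turn are shown with their G and C bases in capitals, because the share of these bases moved with the regional difference (below). The first 4 had a lower and the last 4 a higher Goto-Kakizaki effect in the hippocampus.
Plac9: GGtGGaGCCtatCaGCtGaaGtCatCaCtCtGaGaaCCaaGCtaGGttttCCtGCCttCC
Ucp2: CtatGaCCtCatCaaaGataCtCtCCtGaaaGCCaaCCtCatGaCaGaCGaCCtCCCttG
Syn1: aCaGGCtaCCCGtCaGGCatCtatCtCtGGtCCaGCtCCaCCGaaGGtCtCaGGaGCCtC
Begain: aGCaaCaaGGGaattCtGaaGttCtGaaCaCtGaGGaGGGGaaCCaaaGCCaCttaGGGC
Cxcl12: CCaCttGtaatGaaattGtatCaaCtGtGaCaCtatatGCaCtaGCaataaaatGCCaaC
Clec10a: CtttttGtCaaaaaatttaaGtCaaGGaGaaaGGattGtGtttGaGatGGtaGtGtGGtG
Gpr149: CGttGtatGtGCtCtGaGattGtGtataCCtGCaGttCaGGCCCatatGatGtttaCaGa
A_44_P594162: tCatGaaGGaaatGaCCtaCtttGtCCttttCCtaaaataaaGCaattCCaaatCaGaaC

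Signals were well above background for 67.7% to 74.7% of the probes of an array, and none was saturated. The region labels were checked against markers in the controls. Of 13 measured markers of hippocampal neurons, 7 were higher in the control hippocampus than in the control prefrontal cortex and 0 were lower, while of 18 markers of cortical layers 4 were higher in the prefrontal cortex and 2 in the hippocampus. Some pools stood apart in tissue that lies next to the region. The summed signal of 10 choroid plexus markers, relative to the array's 75th percentile, was 198.5, 29.5 and 134.9 in the Goto-Kakizaki hippocampus and 8.74, 9.51 and 153.0 in the control hippocampus, against 4.1 to 4.84 in all 6 prefrontal pools. The 14 markers of striatal medium spiny neurons with a value on every array summed to 67.6, 52.3 and 84.2 in the control prefrontal cortex and to 61.7, 66.6 and 84.6 in the Goto-Kakizaki prefrontal cortex, against 43.1 to 53.2 in the hippocampus. Single markers set control prefrontal pools 1 and 3 apart more clearly, since the adenosine receptor gene Adora2a stood at 0.26, -1.66 and 0.92 in control prefrontal pools 1, 2 and 3 and at -2.15, -1.72 and -1.53 in the Goto-Kakizaki ones. The slides were unevenly filled as well. The control prefrontal pools lay on slides 7, 5 and 6 and the other 9 pools on slides 1 to 3, so that in the prefrontal cortex the Goto-Kakizaki effect and these slides cannot be told apart.

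**Figure D1:**
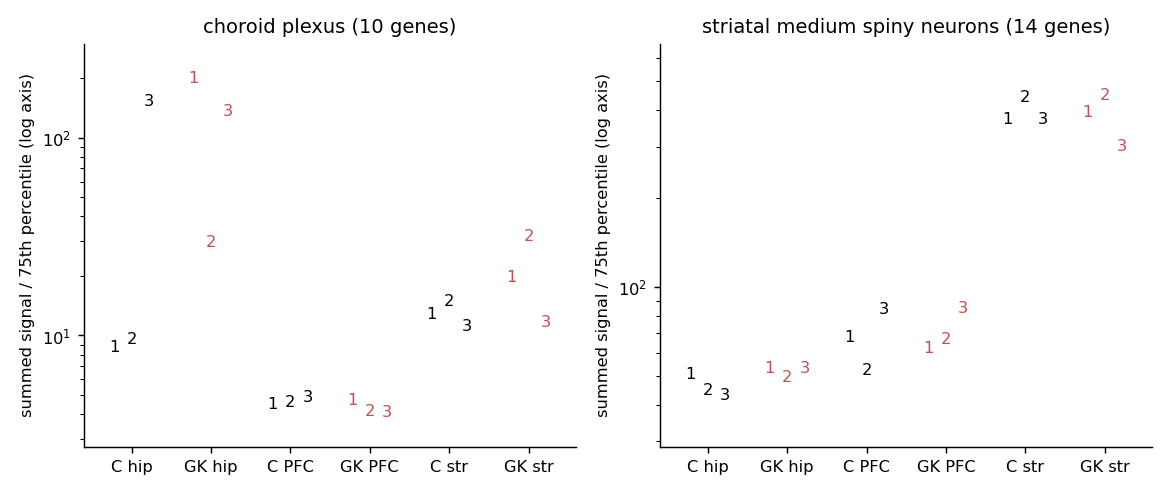
Summed signal of the choroid plexus markers (left) and of the striatal medium spiny neuron markers (right) on a log axis, divided by the array's 75th percentile, with 1 digit per pool (black, control; red, Goto-Kakizaki; str, striatum). Choroid plexus markers were high in Goto-Kakizaki hippocampal pools 1 and 3 and in control hippocampal pool 3, and striatal markers were far higher in the striatum than in any prefrontal pool.

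The Goto-Kakizaki effect differed between hippocampus and prefrontal cortex for 60 of 29781 probes (0.201%), at an adjusted p under 0.05 in limma and a difference of at least 2-fold. It was higher in the hippocampus for 35 probes (0.118%) and lower for 25 (0.0839%). Without adjustment, 3411 probes had a p under 0.05. Over all probes the median difference was -0.05 on the log2 scale, with quartiles of -0.28 and 0.21, and 97.8% of the probes differed by less than 1. The typical standard error of a difference was 0.26. Taken by itself, the hippocampus had 559 called probes (1.88%) and the prefrontal cortex 723 (2.43%). Both regions called 382 probes, which are 68.3% of the hippocampal and 52.8% of the prefrontal calls, all of them in the same direction and none of them with a called difference. Of the 177 probes called in the hippocampus but not in the prefrontal cortex, 7 had a called difference and 162 had the same sign in both regions. Among the 341 called in the prefrontal cortex but not in the hippocampus, those numbers were 18 and 295. The other 35 called differences belonged to probes called in neither region.

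Opposite signs in the regions were the common pattern of the called probes. Choosing probes by a large difference itself favours opposite signs, and their share over all probes was not counted. The 35 probes that were higher in the hippocampus had a median difference of 1.34, made of a median effect of 0.52 in hippocampus and -0.89 in prefrontal cortex, and 26 of them had opposite signs. The 25 lower ones had a median difference of -1.24, made of -0.50 and 0.81, and 23 had opposite signs. Of the 60 probes, 14 were called in all 12 fits that left out 1 pool. Among these were Plac9, Chst9, Grhl3, Ucp2, Begain and LOC687705 on the lower side and Cxcl12, Clec10a, Gpr149, Stk32a, LOC367499, A_44_P172056 and A_44_P594162 on the higher side. Other genes described below held in fewer of the 12 fits. Grin1 was called in 6, Syn1 in 5, Gsk3a in 3, Cyp46a1, Pfkl and Igf1 in 2 each and Adgrb1 in 1. The number of calls itself moved with single pools. It was 18, 18 and 19 without Goto-Kakizaki hippocampal pool 1, 2 or 3, 34 and 19 without Goto-Kakizaki prefrontal pool 2 or 3, 17, 18 and 35 without control hippocampal pool 1, 2 or 3, and 22 without control prefrontal pool 3. Without control prefrontal pools 1 and 3 it was 24, of which 17 were among the 60, and without the 3 hippocampal pools high in choroid plexus markers it was 2, namely Plac9 and A_44_P594162, with a single Goto-Kakizaki hippocampal pool left.

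**Figure D2:**
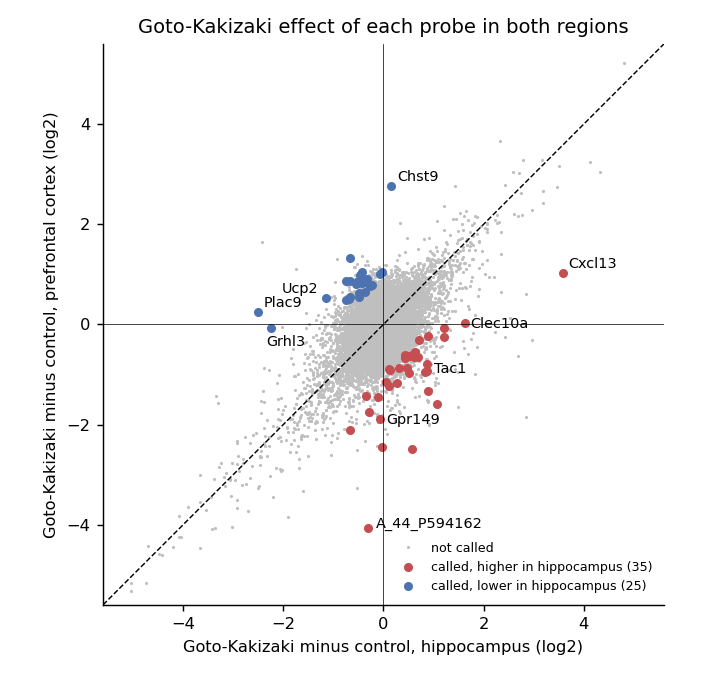
Each point is a probe, with its Goto-Kakizaki minus control difference in the hippocampus on the x axis and in the prefrontal cortex on the y axis (both log2), and the dashed line marks equal effects. The 35 probes called higher in the hippocampus lie below the line and the 25 called lower lie above it, most of them in the quadrants of opposite sign.

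Several probes with a lower effect in the hippocampus belong to genes with known roles at the synapse, a grouping made after their values were seen. Synapsin 1 (Syn1), which tethers synaptic vesicles, had levels, as log2 signal relative to the array's 75th percentile, of -0.44, -0.35 and -0.46 in the Goto-Kakizaki hippocampus against 0.05, 0.17 and 0.07 in the controls. The prefrontal levels were 0.43, 0.62 and 0.86 against 0.10, -0.35 and -0.35. No pool overlapped between groups, and the Goto-Kakizaki pools were the lower ones in hippocampus and the higher ones in prefrontal cortex (difference -1.35 ± 0.24 (SE), limma, adjusted p = 0.0218). Grin1, the obligatory subunit of NMDA receptors, read 3.41, 3.48 and 3.57 in Goto-Kakizaki against 3.76, 3.70 and 3.69 in control hippocampus, and 3.97, 4.17 and 4.36 against 3.48, 3.37 and 3.28 in the prefrontal cortex. Its hippocampal groups were close and its prefrontal groups well apart, for a difference of -1.03 ± 0.18 (limma, adjusted p = 0.0185). A second Grin1 probe with a larger standard error gave 0.10 ± 0.49.

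Begain, a protein of the postsynaptic density, and Adgrb1, an adhesion receptor found at synapses, had differences of -1.13 ± 0.18 and -1.21 ± 0.25. Begain stood at 1.65 in each of the 3 Goto-Kakizaki prefrontal pools against 1.20, 0.89 and 0.96 in the controls, and at 0.83, 1.04 and 0.93 against 1.51, 1.40 and 1.37 in the hippocampus. These 4 sets of pools did not overlap within a region, and the effect turned its sign between regions (limma, adjusted p = 0.00804). For Adgrb1, which had an adjusted p of 0.0404 in limma, a second probe read 0.23 ± 0.34. Cyp46a1, the neuronal enzyme that turns cholesterol into the 24-hydroxycholesterol that leaves the brain, had a difference of -1.46 ± 0.29 (limma, adjusted p = 0.0347) from levels of -2.71, -2.56 and -2.96 against -2.45, -2.24 and -2.16 in hippocampus and of -1.95, -1.78 and -1.46 against -2.38, -3.16 and -2.62 in prefrontal cortex. Here too the Goto-Kakizaki pools were the lower ones in hippocampus and the higher ones in prefrontal cortex.

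Ucp2, an uncoupling protein of the inner mitochondrial membrane, fell in the Goto-Kakizaki hippocampus. Its levels there were -2.12, -1.88 and -1.97 against -0.79, -0.92 and -0.85 in the controls, a called decrease of -1.14. In the prefrontal cortex they were -1.72, -1.44 and -1.40 against -2.11, -2.13 and -1.91. The Goto-Kakizaki pools were all lower in hippocampus and all higher in prefrontal cortex, where the difference of 0.53 was not called (adjusted p = 0.071). The regional difference was -1.67 ± 0.25 (limma, adjusted p = 0.00572). Pfkl, the liver isoform of the glycolytic enzyme phosphofructokinase, and Gsk3a, a kinase that insulin signalling restrains, had smaller differences of -1.05 ± 0.21 and -1.03 ± 0.19. For Gsk3a the hippocampal levels were -1.94, -1.87 and -2.04 against -1.65, -1.57 and -1.51, and the prefrontal levels were -1.48, -1.41 and -1.09 against -1.88, -2.00 and -2.06. Both genes thus combined lower Goto-Kakizaki levels in the hippocampus with higher ones in the prefrontal cortex, and limma gave them adjusted p-values of 0.0354 and 0.0274.

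Plac9, which encodes a small secreted protein first described in placenta, had the most negative difference of all called probes at -2.76 ± 0.30 (limma, adjusted p = 0.000133). Its levels in the hippocampus were -0.74, -0.75 and -0.72 in Goto-Kakizaki against 1.94, 1.85 and 1.53 in control pools. In the prefrontal cortex they were 0.43, 0.16 and 0.74 against 0.24, 0.24 and 0.09. The hippocampal groups lay far apart and the prefrontal groups overlapped. Pools treated with streptozotocin read 0.61, 0.06 and 0.28 in hippocampus, all below the controls, and 0.11, 0.10 and 0.14 in prefrontal cortex. Grhl3, a grainyhead-like transcription factor, also fell in the hippocampus, with a prefrontal difference of -0.08. Its probe was not well above background in any Goto-Kakizaki hippocampal pool, so that the decrease there was at least 2.19-fold and the regional difference, with the background bound in place of these pools, was -1.05 or lower (fitted -2.16, limma, adjusted p = 0.0107).

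Chst9, a sulfotransferase that modifies sugar chains of glycoproteins, had its difference in the prefrontal cortex instead. The control prefrontal levels were -7.87, -7.91 and -7.72, none well above background, and the Goto-Kakizaki levels were -4.47, -5.15 and -5.61, which gives an increase of at least 1.59-fold. In the hippocampus, levels of -0.72, -0.64 and -0.54 against -0.69, -0.72 and -0.93 overlapped. All hippocampal pools were thus above all prefrontal pools, the prefrontal groups were apart, and its regional difference was -0.52 or lower when the background bound replaced the control values, less than the 2-fold of a call (fitted -2.61, limma, adjusted p = 0.00804). The rest of the named genes on this side were the retinoic acid carrier Crabp1 (-1.23), Arhgdia (-1.38), the olfactory receptor gene Or2a57 (-1.08) and Cnnm1 (-1.05), of which Cnnm1 had a second probe at -0.05 and Arhgdia at -0.69. A probe that the array describes as alpha-type calcitonin gene-related peptide, named here after its values were seen, had a difference of -2.00 ± 0.40 (limma, adjusted p = 0.0346). Of the 12 fits that left out 1 pool, 1 still called this probe. It read -2.19, -2.37 and -2.40 against -2.01, -1.55 and -1.39 in the hippocampus, and 0.22, -0.13 and 0.25 against -1.44, -0.88 and -1.33 in the prefrontal cortex, without overlap in either region.

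**Figure D3:**
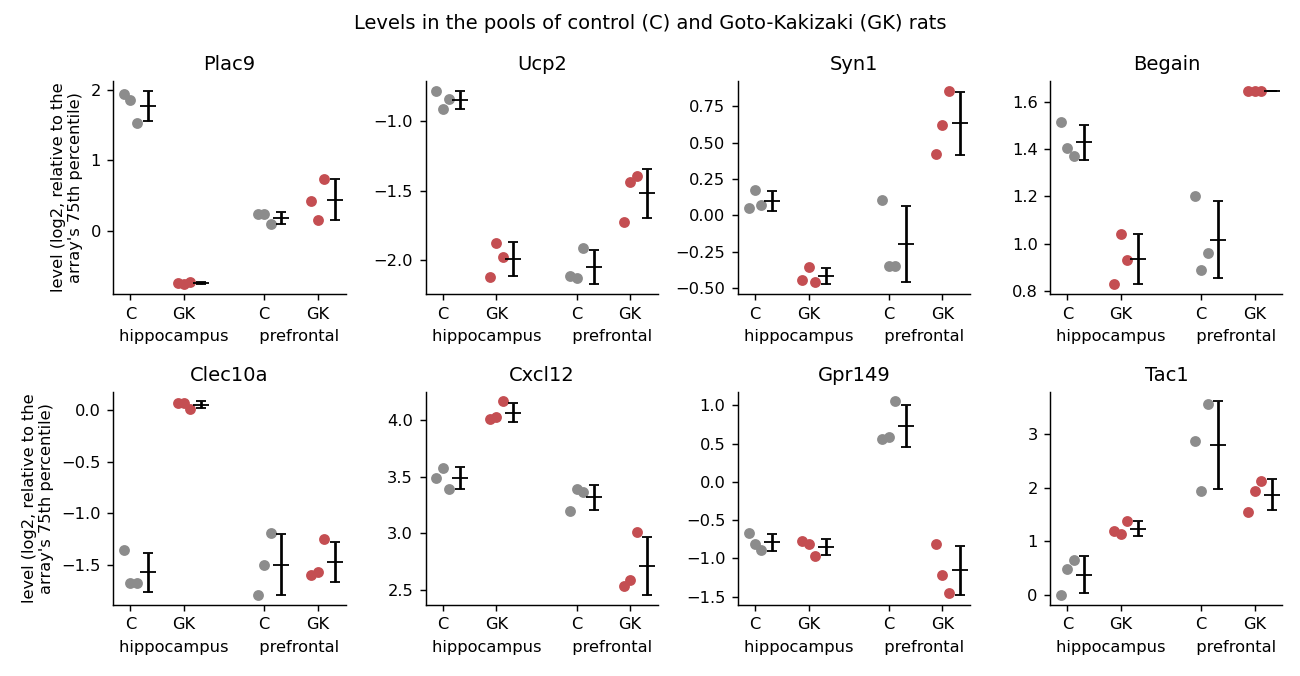
Log2 level relative to the array's 75th percentile in each pool of control (C, grey) and Goto-Kakizaki (GK, red) rats, with mean and SD (n = 3) beside the points. Syn1, Begain, Ucp2 and Cxcl12 had effects of opposite sign in the regions, Plac9 and Clec10a separated the groups in the hippocampus alone, and Gpr149 separated them in the prefrontal cortex alone.

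On the other side, 2 of 21 chemokines and cytokines were called higher (Cxcl12 and Cxcl13), with a list median of 0.23, against 14 of 12634 genes in all and a median of -0.09. The lists of microglia and complement, of interferon-stimulated genes and of antigen presentation had no call. Clec10a, the galactose lectin of macrophages, stood at 0.07, 0.07 and 0.01 in the Goto-Kakizaki hippocampus and at -1.35, -1.68 and -1.68 in the control hippocampus. In the prefrontal cortex it was -1.60, -1.57 and -1.25 against -1.79, -1.51 and -1.20. The groups were clearly apart in hippocampus and overlapped in prefrontal cortex. The hippocampal increase of 1.62 was called, the prefrontal difference was 0.02, and the regional difference was 1.60 ± 0.22 (limma, adjusted p = 0.0021). Cxcl12, a chemokine that guides migrating neurons and leukocytes, had hippocampal levels of 4.01, 4.02 and 4.16 against 3.49, 3.58 and 3.39. Its prefrontal levels were 2.54, 2.59 and 3.01 against 3.19, 3.39 and 3.37. The pools were higher in the Goto-Kakizaki hippocampus and lower in the Goto-Kakizaki prefrontal cortex, for a difference of 1.19 ± 0.17 (limma, adjusted p = 0.00423), whereas a second Cxcl12 probe read 0.12 ± 0.21.

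Cxcl13, a chemokine that attracts B cells, rose in the Goto-Kakizaki hippocampus. Levels there were -3.41, -5.00 and -3.46 against -7.72, -8.01 and -6.88, with no control pool well above background, which gives an increase of at least 3.62-fold. The prefrontal levels were -1.80, -2.47 and -2.09 against -3.14, -3.38 and -2.90. Goto-Kakizaki pools were higher in both regions, the prefrontal difference of 1.02 was not called (adjusted p = 0.061), and the regional difference was at least 0.84 when the background bound replaced the control values (fitted 2.56, limma, adjusted p = 0.0247). Within each group its hippocampal level was highest in the pools high in choroid plexus markers, and without these 3 pools the fitted difference was 1.85 (limma, adjusted p = 0.335). Pilra, an inhibitory receptor of myeloid cells, differed through the prefrontal cortex (-0.89) more than through the hippocampus (0.12).

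Some positive differences came mainly from lower prefrontal levels. Gpr149, an orphan receptor, had overlapping hippocampal levels of -0.77, -0.81 and -0.96 against -0.67, -0.81 and -0.89. In the prefrontal cortex it fell, from 0.56, 0.58 and 1.05 in control to -0.81, -1.21 and -1.45 in Goto-Kakizaki pools. Its regional difference of 1.83 ± 0.24 (limma, adjusted p = 0.00103) therefore came almost wholly from the prefrontal decrease of -1.89. Gna14, a subunit of the Gq class of G proteins, had the same shape, with a prefrontal decrease of -1.15, a hippocampal difference of 0.05 and a second probe at 0.87 ± 0.18. Igf1, the growth factor insulin-like growth factor 1, read 1.17, 1.10 and 1.22 against 1.26, 0.88 and 0.98 in hippocampus and 0.88, 0.75 and 0.40 against 1.42, 1.74 and 1.62 in prefrontal cortex. Only the prefrontal Igf1 groups were apart (regional difference 1.05 ± 0.23, limma, adjusted p = 0.0455), and its 3 other probes read 0.51, -0.51 and -0.35.

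Tac1, the precursor of substance P, read 1.20, 1.13 and 1.39 against -0.01, 0.48 and 0.65 in the hippocampus. The prefrontal levels were 1.55, 1.95 and 2.12 against 2.88, 1.94 and 3.57. The hippocampal groups were apart, and in the prefrontal cortex control pools 1 and 3 were the high ones, which are also the pools high in Adora2a, Drd2, Rgs9 and Gpr6. Tac1 is itself among the striatal markers. Its difference of 1.79 ± 0.38 (limma, adjusted p = 0.0448) became 0.93 (adjusted p = 0.27) without these pools. RGD1306603, a gene of unstated function in the array's annotation, had a difference of 3.05 that became 2.14 in the same fit, its control prefrontal levels being -1.86, -4.34 and -4.09 against -5.31, -6.10 and -6.35.

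Also called were 3 genes of motile cilia, a set that was noticed after the values were seen and was given no test. Dnai2, an intermediate chain of axonemal dynein, had a difference of 1.65 ± 0.33, Odad4, a part of the complex that docks it, 1.34 ± 0.23, and Ccdc113, a ciliary coiled-coil protein, 1.05 ± 0.22. The Dnai2 levels were -2.76, -2.44 and -2.84 against -3.55, -3.67 and -3.42 in hippocampus and -5.39, -5.14 and -5.00 against -4.66, -4.53 and -3.99 in prefrontal cortex. Its groups were apart in both regions, in opposite directions. Odad4 differed in the prefrontal cortex (-1.23) and hardly in the hippocampus (0.11). Itgb6, a subunit of an epithelial integrin, had a difference of 2.66 ± 0.50 (limma, adjusted p = 0.0274). Its prefrontal effect of -1.59 was larger in size than its hippocampal effect of 1.07. Mean levels were 2.27 in control and 1.60 in Goto-Kakizaki striatum, against -2.38 and -3.97 in the prefrontal cortex. Its hippocampal levels of 0.39, -1.21 and -0.42 against -1.77, -2.11 and -0.59 were highest in the same 3 pools as the choroid plexus markers, and its difference was 2.31 without these pools. In the same fit Dnai2 had 1.95, Odad4 1.27 and Ccdc113 0.99. That fit left a single Goto-Kakizaki hippocampal pool, so these sizes do not show that a call would hold without the pools high in choroid plexus markers.

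Among the other genes on this side, Stk32a, a serine/threonine kinase, had a difference of 1.47 ± 0.22 (limma, adjusted p = 0.00534), with levels of -3.51, -3.46 and -3.49 against -4.40, -3.78 and -3.81 in hippocampus and of -5.19, -5.02 and -5.36 against -4.32, -4.11 and -4.24 in prefrontal cortex. It was higher in all Goto-Kakizaki hippocampal pools and lower in all Goto-Kakizaki prefrontal pools. Omd, a proteoglycan of the extracellular matrix, and Atp6ap1l, similar to a subunit of the vacuolar proton pump, differed by 1.34 and 1.45, both through called prefrontal decreases of -1.45 and -1.74 with hippocampal differences of -0.11 and -0.29.

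The largest difference of all called probes belonged to A_44_P594162, a probe without a gene symbol, at a fitted 3.75. It read -2.52, -3.04 and -2.72 against -2.61, -2.46 and -2.30 in hippocampus and -6.57, -6.65 and -5.93 against -2.45, -2.29 and -2.24 in prefrontal cortex. The hippocampal groups overlapped, and no Goto-Kakizaki prefrontal pool was well above background. The prefrontal decrease was therefore at least 11.0-fold and the regional difference at least 3.16 (limma, adjusted p = 1.16e-06 for the fitted value). The pools treated with streptozotocin read -2.35, -2.20 and -2.31 in hippocampus and -2.27, -2.39 and -2.62 in prefrontal cortex, close to the controls of both regions. In all, 29 of the 60 called probes had no gene symbol and 31 had one.

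A multigene family added several called probes. Genes described on the array as similar to either of 2 mouse RIKEN cDNAs were read by 42 probes, of which 35 were tested. Of these, 33 had a positive difference and 4 were called, with a median of 0.79 and a range from -0.74 to 1.29. Over all probes the median difference was -0.05 and 0.118% were called higher. Their median effect was 0.35 in hippocampus and -0.42 in prefrontal cortex. The family was grouped after its values were seen. Near-identical copies can share signal, so the probes are not separate measurements, as the probes of 3 called genes show, where capitals mark a run of 37 bases that they share.
LOC363366: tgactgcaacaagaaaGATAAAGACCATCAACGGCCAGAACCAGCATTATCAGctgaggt
LOC363354: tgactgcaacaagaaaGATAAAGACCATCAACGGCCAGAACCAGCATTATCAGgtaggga
LOC367499: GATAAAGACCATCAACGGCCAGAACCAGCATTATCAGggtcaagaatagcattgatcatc
LOC367499, which the array describes as similar to a myosin, had levels of 2.13, 2.19 and 2.15 against 1.57, 1.57 and 1.47 in hippocampus and of 0.85, 0.94 and 0.91 against 1.59, 1.65 and 1.43 in prefrontal cortex. The groups were apart in both regions, in opposite directions (difference 1.27 ± 0.16, limma, adjusted p = 0.00103). LOC363366 and LOC363354 differed by 1.10 and 1.14.

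Lists of known genes were read with 1 probe per gene. Over all 12634 genes so represented the median difference was -0.09, with 14 called higher and 15 lower, and over the 733 genes of the 35 lists 5 were called higher and 6 lower. Of 29 neuropeptides and hormones, 2 were called higher (Tac1 and Igf1) and 0 lower, with a median of 0.18. Large differences without a call were those of Cartpt (2.74), Nts (2.38), Trh (2.27) and Gal (1.69, adjusted p = 0.146), whose errors were large. The 31 genes of peptide receptors and orphan receptors had 1 call, the orphan receptor gene Gpr149, and a median of -0.06. Among 27 glutamate receptors and transporters, Grin1 alone was called and the median was -0.12, while the vesicular transporter gene Slc17a7 had -1.13 (adjusted p = 0.072) and Slc17a6, which marks the thalamus, had 2.26 (adjusted p = 0.10).

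Metabolic lists had few calls and medians from -0.22 to -0.05, against -0.09 for all genes. The 37 genes of insulin and insulin-like growth factor signalling had 1 call in each direction (Igf1 and Gsk3a) and a median of -0.21. In the 33 genes of glucose transport and glycolysis, Pfkl was called and the median was -0.22. Cyp46a1 was the call among 36 cholesterol genes (median -0.10) and Ucp2 among 34 antioxidant and mitochondrial genes (-0.05). No list had more than 2 called genes.

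Other lists had no call in the difference although their genes moved in the regions or stood apart in the median. The 28 interferon-stimulated genes had median effects of 0.59 in hippocampus and 0.72 in prefrontal cortex, 8 of them called in each, and a median difference of -0.03. Over all 12634 genes the median effects were -0.03 and 0.05, with 197 genes called in hippocampus and 249 in prefrontal cortex. The 25 immediate early genes, which neurons switch on with activity, had a median difference of 0.41, from 0.27 and -0.25, and no call. Fos stood at 0.87 and Nr4a2 at 1.00, while Nptx2 had the lowest difference of the list at -0.80 (limma, adjusted p = 0.054). The choroid plexus markers had the largest median of any list, 1.98, with 0 of 10 called and the spread between pools given above. Medians of 0.67, 0.51 and 0.49 belonged to 14 meningeal, 12 thalamic and hypothalamic and 16 striatal markers, of which Tac1 was the single call. The summed level of the meningeal list ranged over the 13 genes with a value on every array from 13.7 to 32.6 in control and 16.3 to 31.4 in Goto-Kakizaki hippocampal pools, and from 24.3 to 42.6 in control and 12.9 to 32.6 in Goto-Kakizaki prefrontal pools. The part of these neighbouring tissues in the called differences was not tested beyond the fits without the pools named above. Markers of astrocytes (14 genes, median 0.00), of oligodendrocytes (20, -0.10) and of endothelium (14, -0.15) had no call, nor did the 20 genes of microglia and complement (-0.25).

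The study listed probes as changed in the hippocampus, in the prefrontal cortex or in both, on these same samples, so its lists are not independent evidence. Of 179 tested probes listed for the hippocampus, 5 had a called difference (Clec10a, LOC363398, A_44_P776131, Ucp2 and Plac9), and of 61 listed for the prefrontal cortex, 2 had one, among them Or2a57. None of the 83 listed for both regions had a call. Over all tested probes the share with a called difference was 0.201%. Taken over all 326 tested probes of these lists, 317 had the same sign in both regions, a share that was not counted over all probes. Genes listed for a single region could have close effects in both, for example Mx2, an interferon-induced GTPase listed for the hippocampus, with 2.07 in hippocampus and 1.90 in prefrontal cortex (interval of the difference -0.38 to 0.73). For others, listed for the prefrontal cortex, the interval lay away from 0 without a call. The difference of Galr2, a galanin receptor, was 1.36 (0.61 to 2.12) and that of Trpv6, a calcium channel, 1.67 (0.89 to 2.45), neither of which passed limma, with adjusted p-values of 0.115 and 0.052.

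The rats treated with streptozotocin were set beside the called probes because their hippocampal and prefrontal pools lay on slides 5 to 7, as the control prefrontal pools did. In the prefrontal cortex, where these 2 groups share slides, the medians of streptozotocin minus control were -0.12 over the 25 lower probes and 0.04 over the 35 higher ones. In the hippocampus, where streptozotocin and control pools were on different slides, they were -0.82 and 0.21, against -0.01 over all probes. Of the lower probes 21 were below the control in the hippocampus of streptozotocin rats, and 30 of the higher ones were above it. These values share the control pools with the Goto-Kakizaki comparison, and the part of the slide in them was not tested.

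**Figure D4:**
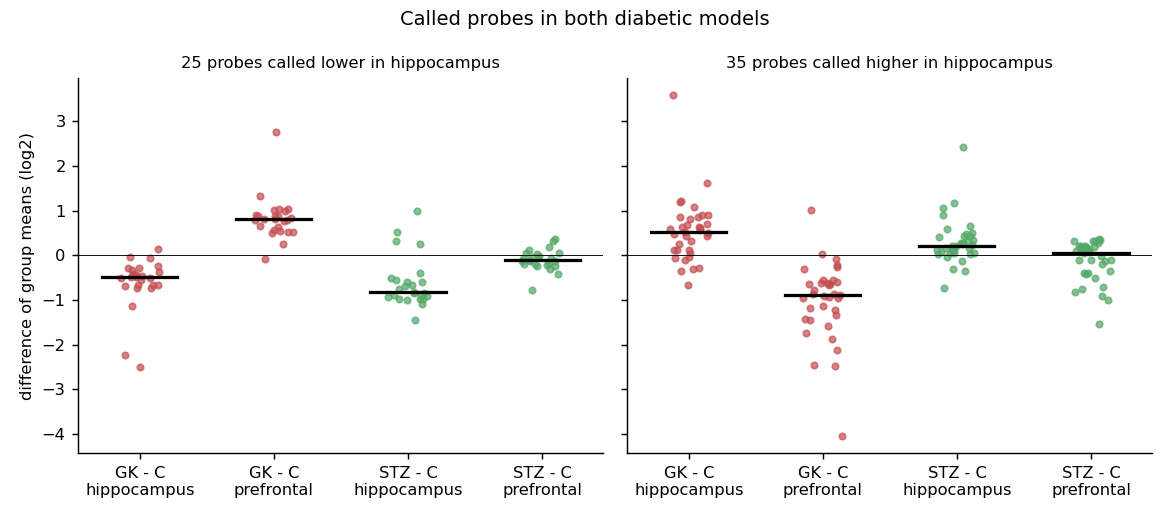
Differences of group means (log2) for the 25 probes called lower (left) and the 35 called higher (right) in the hippocampus, for Goto-Kakizaki (GK, red) and streptozotocin (STZ, green) rats against the control (C); points are probes and lines medians. In the prefrontal cortex the streptozotocin medians are -0.12 and 0.04 with single probes down to -1.55, and in the hippocampus the lower probes have a median of -0.82.

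Base composition of the probes moved with the regional difference. The median difference of all probes went from 0.33 in probes with at most 30% G and C bases to -0.28 in those above 60%. In the hippocampus the median effect went from 0.09 to -0.20 over these classes, and in the prefrontal cortex from -0.22 to 0.12. The called probes followed the same order, with a median of 38.3% in the higher and 50% in the lower ones, against 45% in all. On each array, the log2 level of probes with at most 35% was subtracted from that of probes with at least 50%. The result was -1.45, -0.98 and -0.81 in Goto-Kakizaki prefrontal pools 1, 2 and 3. In control prefrontal pools it was -1.11, -1.41 and -1.15. Only Goto-Kakizaki pools 2 and 3 lay above these, and their 75th percentile signals, 947 and 992, were the lowest of the 12 arrays. Hippocampal means were -1.54 in Goto-Kakizaki and -1.32 in control pools. When each class was centred on each array, 24 of the 35 higher and 18 of the 25 lower probes were still called. Plac9, Chst9, Grhl3, Ucp2, Syn1, Begain, Cyp46a1, Clec10a, Cxcl13, Gpr149, Tac1, Stk32a and LOC367499 were among those, while Grin1, Gsk3a, Pfkl, Or2a57, Cnnm1, Cxcl12, Igf1, Gna14, Omd, Ccdc113 and Pilra were no longer called. Of these, Grin1 (-0.81), Pfkl (-0.86), Gsk3a (-0.83) and Igf1 (0.96) kept adjusted p-values of 0.0265, 0.0278, 0.0367 and 0.0259 in limma and lost the 2-fold size. Or2a57 (-1.02), Cxcl12 (1.05), Gna14 (1.11) and Omd (1.21) kept that size with adjusted p-values of 0.085, 0.0549, 0.0633 and 0.0594 in limma, and Cnnm1 (-0.99), Ccdc113 (0.76) and Pilra (0.92) lost both.

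**Figure D5:**
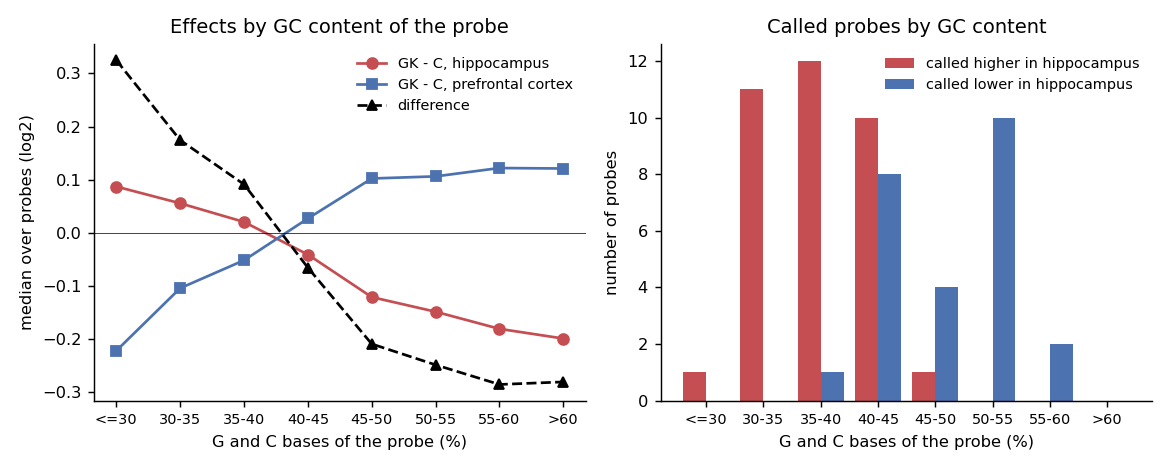
Median Goto-Kakizaki effect in each region and median regional difference (log2) by G and C content of the probe (left), and number of probes called higher or lower in each class (right). The medians of the regions run in opposite directions, and the higher calls lie mostly in classes up to 45% and the lower ones mostly above 40%.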

How the data were processed

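RNA of each pool was labelled with Cy3 and hybridised to a rat Agilent array, and the authors extracted the spots with Feature Extraction 9.1, per the labels. The deposited processed signal is a background-subtracted intensity on a linear scale, not scaled between arrays, and the deposited value table is identical to it. The genome build is not given in the sources used here.

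From this intensity, log2 values were computed for 41012 non-control probes and set relative to each array's 75th percentile; spots marked as outliers (1105 on the 12 arrays) were left out. Deposited values were not on a log2 scale. Tested were 29781 probes whose signal was well above background in 2 or more pools of a group, a condition that both regions had to meet. limma 3.58.1 in R 4.3.3 fitted 9 group means to 27 arrays (18 residual and 2.90 prior degrees of freedom), and p-values were adjusted by Benjamini-Hochberg over all tested probes. A call needs an adjusted p under 0.05 and a difference of at least 2-fold. The script was tested on simulated data. Where a probe was not well above background on any array of a group, the fold is a bound: the dim group is taken, array by array, at the higher of its own value and the dimmest signal that was well above background. The number of arrays limits the precision.

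Names come from the array, updated with the GRCr8 RefSeq table (20035 probes matched). Lists use the tested probe with the highest mean for each gene. Named genes were called probes with a symbol, up to 15 each way, called list members or otherwise the member with the smallest p, genes the study names and region markers. The members and lists were chosen with earlier results of these data known. Tables and figures used Python 3.11.15, numpy 2.4.6, pandas 2.3.3 and matplotlib 3.10.9.

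Alternatives were the 50th percentile, quantile normalization, normexp background (offset 50), the value table, other filters, fits of 12 or 18 arrays, the methods' test with separate variances, blocks for replicate number and slide, slides 5 to 7 as covariates, array weights and leaving out each pool. Chosen after seeing the data were centring by GC class and leaving out the pools high in striatal or choroid plexus markers. Replicate numbers were not taken to pair the regions. Correlations of deviations lay between -0.08 and 0.10 for equal numbers and between -0.17 and 0.24 for unequal ones. With 3 pools in a group they cannot show whether equal numbers held the same animals. The results of 1 called gene are not reported here.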

Additional observations from a re-analysis of the deposited data

Results flagged for a closer look

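The test of the difference between the regional effects itself marked 60 probes, and named genes among them are given here with their differences on the log2 scale (limma, adjusted p under the threshold for each). The effect was lower in the hippocampus for Plac9 (-2.76), Ucp2 (-1.67), Cyp46a1 (-1.46), Arhgdia (-1.38), Syn1 (-1.35), Crabp1 (-1.23), Adgrb1 (-1.21), Begain (-1.13), Or2a57 (-1.08), Pfkl (-1.05), Cnnm1 (-1.05), Gsk3a (-1.03) and Grin1 (-1.03). It was higher in the hippocampus for Itgb6 (2.66), Gpr149 (1.83), Tac1 (1.79), Dnai2 (1.65), Clec10a (1.60), Stk32a (1.47), Atp6ap1l (1.45), Odad4 (1.34), Omd (1.34), Gna14 (1.19), Cxcl12 (1.19), Ccdc113 (1.05), Igf1 (1.05) and Pilra (1.00). For 3 further genes a group was not above background, so the fitted values of Chst9 (-2.61), Grhl3 (-2.16) and Cxcl13 (2.56) have no rank, and with the background bound in place of that group they became -0.52, -1.05 and 0.84.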

How the results depend on the processing

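The 60 differences became 51 with the 50th percentile, 71 with quantile normalization, 60 with the value table, with outlier spots kept or with probes well above background on all 12 arrays, 64 with a raw signal of at least 100 and 62 with slide as a random block. They became 5 with normexp, which also moved the median difference of all probes to -0.12, 31 without a filter on dim probes, 103 with the 12 and 149 with the 18 arrays fitted alone, 634 with slides 5 to 7 as covariates (99 higher and 535 lower, 20 of the 60 among them), 543 with array weights (49 of the 60), 107 without a fold threshold, and 0 and 271 by the methods' test with separate variances, with and without adjustment. Leaving out each pool gave 17 to 77. With alternatives chosen after seeing the data they became 52 (centred by GC class), 64 (also with 12 arrays alone), 24 (without control prefrontal pools 1 and 3) and 2 (without the hippocampal pools high in choroid plexus markers, the lone Goto-Kakizaki pool being assumed to vary like the other groups). Equal replicate numbers were not treated as paired in the main fit. A replicate block within animal groups gave 32, of which 30 were among the 60, and 34 with GC centring. Within the regions, the 559 hippocampal and 723 prefrontal calls became 206 and 260 with normexp, 598 and 1425 (374 shared) with slides 5 to 7 as covariates, 222 and 0 by the methods' test with adjustment and 588 and 655 without, 1561 and 2752 without a fold threshold, and 295 and 692 without the pools high in choroid plexus markers. Of the 31 called genes with a symbol none changed sign under any alternative, and the causes of lost calls were not tested.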
